A study of Mus musculus with 90 samples.

Results

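The transcriptome of mouse macrophages lacking Irf8 was compared before and 4 days after exposure to RANKL, the cytokine that turns macrophage precursors into bone-resorbing osteoclasts. The comparison holds the 3 libraries titled Ost_IRF8KO_Day4 and the 3 titled Ost_IRF8KO_Day0, 6 of the 90 libraries of the series, and covers 11530 of 24543 genes, those with at least 1 RPKM (reads of a gene divided by its length in kilobases and by the M alignments of the library) in at least 2 of the 17 libraries fitted together. All 6 libraries came from bone marrow-derived macrophages (BMMs) of Irf8-/- mice. At day 0 the cells had received M-CSF, a growth factor for macrophages, and at day 4 M-CSF and RANKL, so that the effects of RANKL and of time in culture cannot be told apart. For reference, BMMs from Irf8+/+ mice (WT) under the same conditions gave 3 libraries at day 0 and 2 at day 4. A separate transduction experiment gave 3 libraries at each day from Irf8-/- BMMs labelled mock, the control of a set that received human IRF8 constructs. BMMs were obtained from male and female mice, and the sources used here name neither the strain nor the age of the animals. The labels do not say whether the libraries of a group came from separate animals or cultures, so p-values measure the spread between these libraries. The cell type label reads osteoclast for every library, the day 0 ones included.

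RANKL binds its receptor RANK on macrophage precursors and acts through TRAF6, NF-kB and AP-1 factors, together with calcium signals from immunoreceptor partners, to raise the transcription factor NFATc1. NFATc1 with PU.1 and MITF then drives the genes for cell fusion, acid secretion and digestion of bone matrix. IRF8 is a transcription factor of the interferon regulatory family that directs monocyte and dendritic cell development, restrains granulocyte formation, and holds osteoclast formation back until RANKL lowers its level.

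The 6 libraries held 38.5 to 48.8 M alignments. Day 0 libraries were alike: across genes, the SD of the log2 deviation of a library from its group mean ran from 0.0644 to 0.0778, and the summed RPKM from 399839 to 403565. Day 4 libraries differed more, and library 3 stood apart, with a summed RPKM of 540595 against 358010 and 346395 and an SD of 0.52 against 0.28 and 0.27. Its deviation followed gene length. In the decile of genes with the shortest transcripts (median 1249 bases) the median log2 deviations of libraries 1, 2 and 3 were -0.22, -0.46 and 0.69, and in the longest decile (median 12374 bases) they were 0.40, 0.14 and -0.55. Calls that named genes lost without library 3, and the list counts and medians that it moved most, are therefore given both ways.

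**Figure D1:**
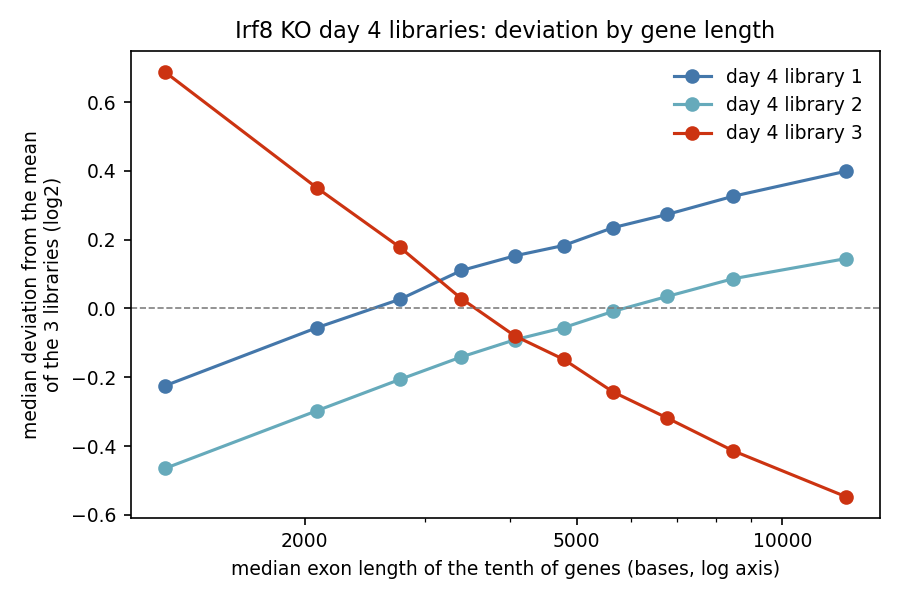
Median log2 deviation of each Irf8 KO day 4 library from the mean of the 3, by decile of gene length (x axis, median exon length of the decile in bases, log axis; y axis, log2 deviation of RPKM + 1). Library 3 runs from 0.69 in the shortest decile to -0.55 in the longest, opposite to libraries 1 and 2.

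Irf8 itself still gave reads in the KO cells, and gene-level values do not tell a disrupted transcript from an intact one. It was at 32.5, 34.2 and 33.3 RPKM in the 3 day 0 libraries and at 8.97, 5.92 and 6.45 RPKM at day 4, and fell (log2 -2.10 ± 0.19, adjusted p = 2.32e-07; ± is the standard error of the limma fit throughout). In WT it was at 74.0, 69.1 and 72.9 RPKM at day 0 and 27.1 and 17.1 RPKM at day 4. Osteoclast markers went from a summed 22.1 to 24.6 RPKM at day 0 to 32412 to 48138 RPKM at day 4, and all 9 markers were above 0.1 RPKM at day 4. The 6 macrophage markers summed to 9597 to 9750 RPKM and then to 4458 to 4883 RPKM, so macrophage transcripts were still abundant in the day 4 cultures. Neutrophil markers summed to 99.7 to 104.6 RPKM at day 0 and 2.59 to 9.90 RPKM at day 4. Of the other cell types, stromal and osteoblast markers summed to at most 8.51 RPKM, B cell markers to at most 1.71, T and NK cell markers to at most 0.304, mast cell markers to at most 0.122, erythroid markers to at most 0.243 and dendritic cell markers to at most 1.21. Ms4a1, Cd3e, Cd3g, Ncr1, Hba-a1, Clec9a and Bglap were below 0.1 RPKM in all 6 libraries. In bulk RNA, fewer cells of a type and less RNA per cell cannot be told apart.

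At day 4, 6672 of the 11530 genes (57.9%) differed from day 0, 1573 (13.6%) higher and 5099 (44.2%) lower. The libraries of both days did not overlap, with day 4 higher, in 17.4% of genes, and with day 4 lower in 52.6%. The changes were large: 301 genes were higher and 741 lower by a log2 fold change of 2 or more, and 62 and 46 by 4 or more. RPKM values are relative to all reads of a library, and the 20 most abundant genes held 21.2% to 28.2% of the summed RPKM at day 4 and 17.3% to 17.4% at day 0. The median log2 change of all genes was -0.43, and 0.01 after median-of-ratios scaling of the libraries, which gave 2784 higher (24.1%) and 2873 lower (24.9%) genes. All 1573 higher genes were also higher after scaling, while 2873 of the 5099 lower genes were also lower. Scaling shifted the changes upward, so that rises could hardly lose their call by it and falls could. List counts are given as deposited and after scaling where they differ, and each list's median is to be read against -0.43. Likewise each count of falls is to be read against 44.2% (24.9% after scaling) and each count of rises against 13.6% (24.1%). The share of members that fell was within 10 percentage points of 44.2% in the fusion, actin, complement, cytokine receptor, mitochondrial biogenesis, lipid synthesis, cholesterol efflux, lysosome and cell death lists, so those counts of falls do not set these lists apart from all genes.

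**Figure D2:**
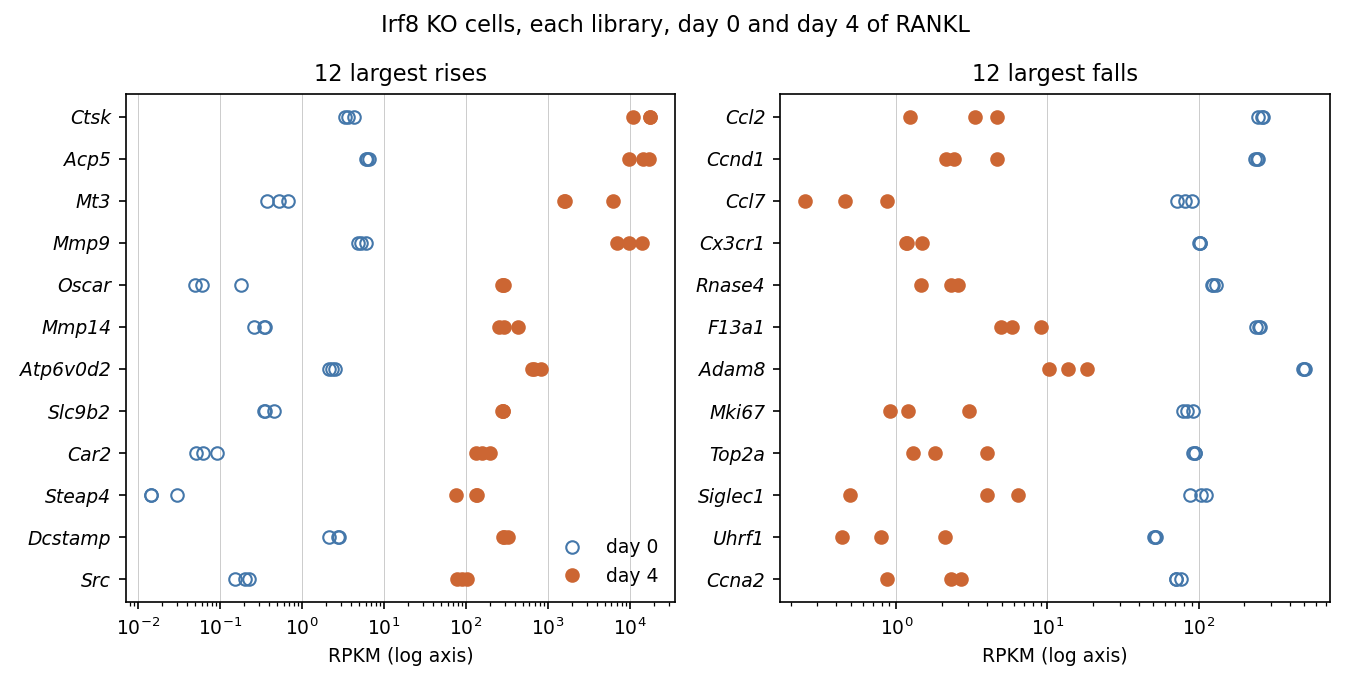
RPKM of the 12 largest rises and the 12 largest falls in each library (x axis, log scale, values under 0.01 RPKM drawn at 0.01; open points day 0, filled points day 4, 3 libraries each). The genes were picked among those whose groups do not overlap. Ctsk, Acp5, Mt3 and Mmp9 lie above 1000 RPKM in every day 4 library.

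Genes with which osteoclasts dissolve bone were among the largest rises. Ctsk, the collagen-cutting protease cathepsin K (chromosome 3, 95499256 to 95509362, plus strand of GRCm38, GENCODE M21 annotation), was at 4.34, 3.32 and 3.70 RPKM in the 3 day 0 libraries and 11089, 17582 and 17939 RPKM at day 4 (log2 11.64 ± 0.25, adjusted p = 2.64e-14). It went from a low level to the most abundant nuclear coding transcript at day 4. Acp5, the tartrate-resistant acid phosphatase used to stain osteoclasts (chromosome 9, 22126727 to 22135711, minus strand), went from 6.66, 6.30 and 6.16 to 9804, 14526 and 17146 RPKM (log2 10.84 ± 0.23, adjusted p = 2.43e-14). Mmp9, a gelatinase (chromosome 2, 164940780 to 164955850, plus strand), went from 6.02, 5.22 and 4.82 to 9904, 14305 and 7064 RPKM (log2 10.62 ± 0.24, adjusted p = 5.25e-14), and the membrane protease Mmp14 from 0.263, 0.356 and 0.344 to 291, 258 and 437 RPKM (log2 7.93 ± 0.20, adjusted p = 1.51e-13). All 3 day 4 libraries of these 4 genes lay far above all day 0 libraries. Car2, the carbonic anhydrase behind the protons of acid secretion, was at 0.0927, 0.0628 and 0.0511 and then 159.8, 133 and 199 RPKM (log2 7.25 ± 0.16, adjusted p = 2.71e-14). Slc9b2, a sodium/proton antiporter, was close to constant across the day 4 libraries at 283, 281 and 286 RPKM, from 0.465, 0.351 and 0.357 RPKM (log2 7.68 ± 0.13, adjusted p = 4.34e-15). Ckb, brain-type creatine kinase, which rebuilds ATP, reached 5041, 6051 and 9135 RPKM from 334, 388 and 355 (log2 4.18 ± 0.24, adjusted p = 1.42e-09).

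Of 18 resorption genes, 17 rose and none fell, with a median log2 change of 4.92, and all 18 were higher after scaling. The list was chosen with these data known, so its direction is a description. Plekhm1, a lysosome trafficking adaptor, was the member that did not pass, at 37.4, 40.1 and 41.7 and then 73.8, 58.9 and 38.6 RPKM (log2 0.47 ± 0.24, adjusted p = 0.107), and it passed after scaling (log2 1.02) and without library 3 (log2 0.72). The 18 genes together held 0.291% to 0.309% of the summed RPKM at day 0 and 10.3% to 16.1% at day 4. The same share was 4.31% to 5.40% in the WT day 4 libraries and 2.54% to 2.87% in the mock ones.

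The promoter of Acp5 is shown because the gene is a known target of MITF in osteoclasts. It is the 120 bases before a RefSeq transcription start on GRCm38.p6 (chr9:22130599-22130718, minus strand). Of 3 listed starts, the one whose 120 bases held most matches to the letters was taken, so the window was selected for its match. Capitals mark a match to the M-box letters TCATGTG, read on either strand, 90 bases before the start.
Acp5: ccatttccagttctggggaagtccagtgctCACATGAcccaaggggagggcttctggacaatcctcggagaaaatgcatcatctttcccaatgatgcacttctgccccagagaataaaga
The M-box letters were found within 250 bases before a start in 2 of the 14 resorption genes with a promoter in the RefSeq table and in 2.26% of the 8969 tested genes with one. The AP-1 letters TGANTCA were found in 1 of 14 and in 5.53%. A match of letters is a description of the window and no evidence of binding.

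Acid is pumped onto bone by the vacuolar H+-ATPase (V-ATPase). Of its 19 tested subunits, 15 rose and 1 fell (median 1.94; 17 and 1 after scaling), and their share of the summed RPKM went from 0.501% to 0.506% at day 0 to 2.19% to 2.59% at day 4. Atp6v0d2, a subunit of the membrane sector tied to osteoclasts and fusion, was at 2.36, 2.58 and 2.18 and then 671, 828 and 651 RPKM (log2 7.73 ± 0.22, adjusted p = 5.05e-13). Tcirg1, the osteoclast a3 form of the proton-channel subunit, went from 94.1, 98.4 and 99.4 to 618, 564 and 565 RPKM (log2 2.57 ± 0.20, adjusted p = 4.53e-08). Its a1 counterpart Atp6v0a1 moved the other way, from 57.1, 57.5 and 57.7 to 17.9, 11.9 and 11.3 RPKM (log2 -2.02 ± 0.26, adjusted p = 9.87e-06), and was the subunit that fell. Subunits of the ATP-splitting head also rose, among them Atp6v1b2, from 136 to 138 to 1217 to 1399 RPKM (log2 3.22 ± 0.13, adjusted p = 4.1e-11), and Atp6v1e1, from 126 to 136 to 729 to 1096 RPKM (log2 2.72 ± 0.16, adjusted p = 2.15e-09). Atp6v0d1, the d1 counterpart of Atp6v0d2, was at 122, 122 and 123 and 124, 93.3 and 182 RPKM (log2 0.07 ± 0.19, adjusted p = 0.794), with overlapping libraries.

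Fusion genes went both ways. Of 12, 3 rose and 5 fell (median -0.15; 6 and 4 after scaling). The risers were the osteoclast-specific ones: Dcstamp, the transmembrane protein needed for fusion, from 2.85, 2.16 and 2.80 to 288, 296 and 325 RPKM (log2 6.40 ± 0.13, adjusted p = 1.68e-14), its relative Ocstamp, from 0.339 to 0.506 to 88.8 to 122 RPKM (log2 6.20 ± 0.21, adjusted p = 6.06e-12), and Siglec15, a lectin that signals through Tyrobp, from at most 0.0445 RPKM to 93.8, 72.9 and 25.3 RPKM (log2 5.80 ± 0.55, adjusted p = 3.37e-07). Siglec15 was lowest in library 3. Adam8, a membrane protease, fell from 488, 503 and 496 to 18.3, 13.8 and 10.2 RPKM (log2 -5.08 ± 0.22, adjusted p = 5.49e-11), the tetraspanin Cd81 from 214 to 221 to 29.1 to 38.6 RPKM (log2 -2.64 ± 0.16, adjusted p = 2.06e-09), and the integrin subunit Itgb5 from 95.2 to 106 to 17.4 to 24.8 RPKM (log2 -2.20 ± 0.18, adjusted p = 7.09e-08). The purinergic receptor P2rx7 fell as well (log2 -1.50).

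Upstream of these effectors, 11 of 24 osteoclast transcription factors rose and 8 fell (median -0.10; 12 and 6 after scaling). Without library 3, 9 rose and 7 fell and the median was 0.13. Nfatc1, named here after its values were seen because it is the central factor of the pathway, went from 11.4, 11.6 and 11.4 to 81.6, 74.6 and 34.6 RPKM (log2 2.28 ± 0.31, adjusted p = 1.43e-05). Its relative Nfatc2 went from 13.6, 14.6 and 15.1 to 2.90, 1.58 and 0.833 RPKM (log2 -2.54 ± 0.26, adjusted p = 7.9e-07), so the pair moved in opposite directions. Jdp2, an AP-1 family member, rose from 14.1, 14.9 and 13.9 to 377, 369 and 304 RPKM (log2 4.51 ± 0.19, adjusted p = 4.23e-11), and the AP-1 factor Fosl2 from 9.74, 10.7 and 10.8 to 163, 149 and 76.0 RPKM (log2 3.44 ± 0.25, adjusted p = 1.87e-08). Prdm1 (Blimp1), which silences anti-osteoclastogenic genes, went from 0.255, 0.186 and 0.325 to 30.96, 26.8 and 12.7 RPKM (log2 4.20 ± 0.32, adjusted p = 3.41e-08), and Relb of the alternative NF-kB pathway from 3.80 to 4.82 to 19.02 to 30.3 RPKM (log2 2.29 ± 0.24, adjusted p = 1.13e-06). Library 3 was the lowest of the day 4 libraries for Jdp2, Fosl2 and Prdm1 and the highest for Relb. Hivep3, the oxidative stress factor Nfe2l2 and the lysosomal factor Tfe3 fell (log2 -1.39, -1.26 and -1.20).

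Receptors and signalling parts showed no common direction: 8 of 32 rose and 10 fell (median -0.03), and after scaling 16 rose and 5 fell. Without library 3, 9 rose and 6 fell. Oscar, the immunoreceptor for collagen that gives the calcium signal, rose from 0.180, 0.0609 and 0.0496 to 281, 279 and 295 RPKM (log2 8.03 ± 0.16, adjusted p = 1.68e-14). Calcr, the calcitonin receptor that marks mature osteoclasts, was at 0.00613 RPKM or less at day 0 and at 61.9, 55.5 and 31.2 RPKM at day 4 (log2 5.59 ± 0.27, adjusted p = 2.17e-10). Src, the tyrosine kinase needed for the ruffled border and grouped here with the largest rises, went from 0.201, 0.226 and 0.153 to 104, 91.0 and 78.0 RPKM (log2 6.26 ± 0.25, adjusted p = 2.89e-11). These 3 genes went from near absence to moderate levels. Rcan1, an NFAT-induced inhibitor of calcineurin, went from 8.14, 8.42 and 7.98 to 62.96, 61.8 and 62.5 RPKM (log2 2.79 ± 0.12, adjusted p = 4.1e-11), and the adaptor Traf5 from 2.91 to 3.41 to 5.63 to 10.9 RPKM (log2 1.07 ± 0.22, adjusted p = 0.000752). Parts of the ITAM pathway fell: Plcg2, the phospholipase behind the calcium signal, from 53.2, 56.04 and 57.3 to 19.996, 14.6 and 9.51 RPKM (log2 -1.90 ± 0.27, adjusted p = 2.12e-05), the adaptor Blnk from 31.7 to 32.9 to 11.1 to 15.8 RPKM (log2 -1.21 ± 0.17, adjusted p = 1.88e-05), and the signalling chain Fcer1g from 1070.1 to 1157 to 286 to 541 RPKM (log2 -1.54 ± 0.22, adjusted p = 2.21e-05). RANK itself (Tnfrsf11a), named after its values were seen, did not pass, at 39.2, 42.5 and 37.7 and 65.4, 80.3 and 25.3 RPKM (log2 0.36 ± 0.37, adjusted p = 0.432), and was higher without library 3, the lowest (log2 0.85), and after scaling (log2 0.91). Tyrobp (DAP12), the other signalling chain, did not pass, at 1071, 1061 and 1066 and 1327, 1323 and 2844 RPKM (log2 0.68 ± 0.30, adjusted p = 0.0658), and was higher after scaling (log2 1.24).

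Repressors of osteoclast formation were lower. Of 14, 10 fell and 2 rose (median -2.05; 10 and 4 after scaling). The falls include that of Irf8, the gene disrupted in these cells. Bcl6, a target of Prdm1, went from 15.4, 15.6 and 15.1 to 3.62, 3.18 and 2.52 RPKM (log2 -2.005 ± 0.16, adjusted p = 5.16e-08), Rbpj, the Notch effector, from 67.1 to 67.7 to 5.36 to 11.5 RPKM (log2 -2.83 ± 0.25, adjusted p = 1.41e-07), and Lgals9 from 62.2 to 62.4 to 5.59 to 8.06 RPKM (log2 -3.06 ± 0.26, adjusted p = 1.1e-07). Day 0 and day 4 libraries of these 3 genes were apart. The feedback inhibitors Tnfaip3 (A20) and Ndfip1 rose (log2 2.46 and 0.94). Cyld, a deubiquitinase that restrains TRAF6, did not pass, at 7.18 to 7.98 and 6.13 to 11.2 RPKM.

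Actin and sealing zone genes gave 7 of 26 higher and 14 lower (8 and 8 after scaling). The unconventional myosins Myo10 and Myo1e rose, Myo10 from 5.05, 5.08 and 5.62 to 38.99, 32.1 and 18.1 RPKM (log2 2.23 ± 0.24, adjusted p = 1.46e-06) and Myo1e by a log2 of 2.18. The small GTPases Rac1 and Rac2, which steer actin assembly, went opposite ways, Rac2 from 95.1, 101 and 97.5 to 340.0, 276 and 386 RPKM (log2 1.75 ± 0.17, adjusted p = 5.66e-07) and Rac1 from 255, 247 and 239.8 to 125, 102 and 139 RPKM (log2 -1.03 ± 0.13, adjusted p = 8.76e-06). The exchange factors Dock2 and Vav1 fell (log2 -2.77 and -1.25). Actb, cytoplasmic actin, was lower as deposited (log2 -1.02 ± 0.18, adjusted p = 0.000181) and did not pass after scaling (log2 -0.45, adjusted p = 0.151).

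Proteins that osteoclasts secrete to other bone cells rose in 10 of 15 cases and fell in 2 (12 and 1 after scaling; median 1.48). Pdgfb, a growth factor for vessel and mesenchymal cells, went from 7.62, 9.45 and 7.51 to 144, 124 and 118 RPKM (log2 3.82 ± 0.21, adjusted p = 5.82e-10). Lif, a cytokine of the interleukin-6 family, and Cthrc1, a matrix protein that acts on osteoblasts, were at most at 0.0369 RPKM at day 0 and at 5.87 to 9.42 and 5.45 to 8.15 RPKM at day 4 (log2 3.11 and 2.94). Spp1 (osteopontin), already abundant at day 0, did not pass, at 815, 834 and 786 and 824, 919 and 1273 RPKM (log2 0.28 ± 0.22, adjusted p = 0.273).

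Iron genes went both ways: 5 of 13 rose and 4 fell (6 and 4 after scaling). Tfrc, the transferrin receptor through which cells take up iron, went from 70.04, 64.9 and 70.5 to 571, 668 and 300.3 RPKM (log2 2.81 ± 0.31, adjusted p = 1.63e-06), and the metal transporter Slc11a2 from 6.78 to 7.28 to 29.7 to 39.2 RPKM (log2 2.18 ± 0.15, adjusted p = 6.31e-09). Steap4, a metal reductase among the largest rises, went from 0.0302, 0.0143 and 0.0146 to 136, 135 and 76.7 RPKM (log2 6.79 ± 0.28, adjusted p = 3.5e-11). The exporter Slc40a1 (ferroportin), the phagosomal transporter Slc11a1 and Hmox1, which frees iron from heme, fell (log2 -1.26, -2.46 and -2.99). Hmox1 was at 693, 718 and 704 RPKM and then 100.3, 79.2 and 84.5 RPKM. The ferritin heavy chain Fth1, which has processed copies in the genome, did not pass: Fth1 was at 8986, 8656 and 8823 RPKM and then 3587, 4849 and 8009.6 RPKM, highest in library 3, and without it Fth1 was lower (log2 -1.08). Mt3, a metal-binding metallothionein whose rise ranked after those of Ctsk and Acp5, went from 0.529, 0.376 and 0.680 to 1619.9, 1591 and 6324 RPKM (log2 10.70 ± 0.49, adjusted p = 1.1e-10; log2 10.04 without library 3).

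**Figure D3:**
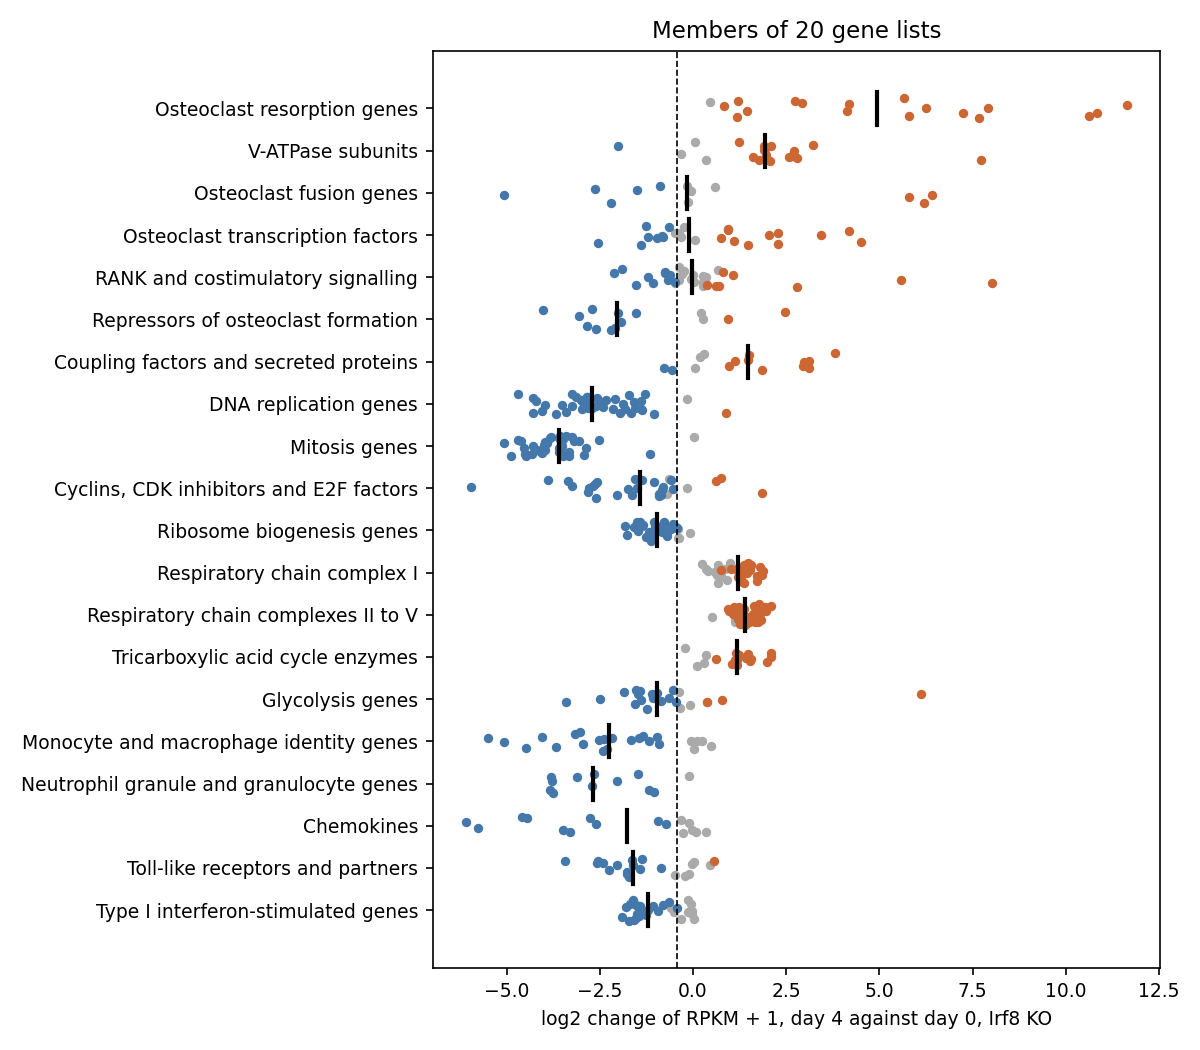
Log2 change from day 0 to day 4 in Irf8 KO cells for each tested member of 20 lists (x axis; grey, did not pass; orange, higher; blue, lower), with list medians as black bars and the median of all 11530 genes (-0.43) as a dashed line. The medians of the resorption, V-ATPase and respiratory chain lists lie to the right of the line and those of the cell division, neutrophil and Toll-like receptor lists to the left.

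The most uniform fall was that of cell division genes. Of 40 mitosis genes, 39 fell and none rose (median -3.59), and of 43 DNA replication genes, 41 fell and 1 rose (median -2.72). The counts were the same after scaling. The median level of the mitosis genes was 29.8 RPKM at day 0 and 1.36 RPKM at day 4, and that of the replication genes 20.2 and 2.96 RPKM. Mki67, the proliferation antigen Ki-67, went from 83.9, 79.0 and 92.0 to 3.04, 1.20 and 0.902 RPKM (log2 -5.06 ± 0.26, adjusted p = 3.9e-10). Ccna2 (cyclin A2) went from 75.9, 70.9 and 70.5 to 2.67, 0.871 and 2.29 RPKM (log2 -4.70 ± 0.21, adjusted p = 8.01e-11). Ccnb1 and Ccnb2, the cyclins of mitotic entry, went from 50.6, 47.7 and 46.9 to 1.77, 0.893 and 1.01 RPKM and from 62.04, 60.1 and 62.2 to 2.51, 1.14 and 3.05 RPKM (log2 -4.49 and -4.32). In each of these, every day 4 library lay far below the lowest day 0 library.

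Top2a, the topoisomerase that untangles chromosomes, went from 94.6, 91.5 and 94.0 to 3.99, 1.81 and 1.30 RPKM (log2 -4.89 ± 0.23, adjusted p = 1.6e-10). Prc1, a spindle midzone protein, went from 55.7, 51.8 and 52.98 to 2.36, 1.12 and 0.991 RPKM (log2 -4.49 ± 0.17, adjusted p = 2.1e-11), and Plk1, the mitotic polo-like kinase, from 46.6, 48.7 and 48.7 to 1.75, 0.640 and 1.05 RPKM (log2 -4.54 ± 0.23, adjusted p = 2.97e-10). The replicative helicase subunits Mcm5, Mcm7 and the loader partner Mcm10 fell by similar sizes (log2 -4.22, -4.06 and -3.24), as did Rrm2, which makes deoxynucleotides (log2 -4.30). Uhrf1, which keeps DNA methylation through replication, went from 50.5, 52.1 and 51.1 to 2.11, 0.791 and 0.440 RPKM (log2 -4.71 ± 0.24, adjusted p = 3.06e-10). The replication gene that rose was Chaf1b, a histone chaperone subunit, from 16.8, 17.2 and 18.1 to 29.99, 28.4 and 42.6 RPKM (log2 0.90 ± 0.18, adjusted p = 0.000524). A further gene of each list did not pass.

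Of 30 cyclins, cyclin-dependent kinase (CDK) inhibitors and E2F factors, 24 fell and 3 rose (17 and 3 after scaling). Ccnd1, cyclin D1 that carries growth factor signals into the cell cycle (chromosome 7, 144929931 to 144939925, minus strand), had the second largest fall of all named genes, from 237, 246 and 242 to 4.66, 2.41 and 2.12 RPKM (log2 -5.95 ± 0.26, adjusted p = 5.08e-11). The repressor E2Fs E2f7 and E2f8 and the pocket protein Rbl1 fell (log2 -2.58, -3.88 and -3.25). All 3 genes that rose encode CDK inhibitors: Cdkn2b (p15) went from 2.64, 2.87 and 2.15 to 11.3, 8.60 and 16.5 RPKM (log2 1.85 ± 0.37, adjusted p = 0.000609), Cdkn1b (p27) from 15.3, 15.97 and 15.2 to 25.8, 25.01 and 22.3 RPKM (log2 0.62 ± 0.17, adjusted p = 0.00529), and Cdkn1c (p57) from 0.903 to 1.09 to 1.801 to 3.40 RPKM (log2 0.76 ± 0.17, adjusted p = 0.00117).

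Promoters of 5 of these genes are shown because cell cycle genes share short sequences in them: the CCAAT box, bound by NF-Y, the cell cycle homology region (CHR, letters TTTGAA), bound by complexes that silence mitotic genes in resting cells, and the E2F site (letters GCGGGAA). Each line gives the 120 bases before a RefSeq transcription start on GRCm38.p6, 5′ to 3′ on the gene's strand, with capitals marking CCAAT, CHR or E2F letters on either strand (their reverse complements included). Their positions are chr13:100786487-100786606 for Ccnb1, chr9:70421555-70421674 for Ccnb2 and chr11:99024190-99024309 for Top2a, all on the minus strand. Those on the plus strand are chr7:80294356-80294475 for Prc1 and chr17:56303217-56303336 for Uhrf1. Prc1 and Uhrf1 have 2 listed starts each, and the one whose 120 bases held most matches to the letters was taken.
Ccnb1: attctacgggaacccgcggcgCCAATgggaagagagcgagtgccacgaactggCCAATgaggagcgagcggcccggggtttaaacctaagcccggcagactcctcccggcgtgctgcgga
Ccnb2: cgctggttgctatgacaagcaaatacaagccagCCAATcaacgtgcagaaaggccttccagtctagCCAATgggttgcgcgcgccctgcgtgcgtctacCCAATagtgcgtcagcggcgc
Prc1: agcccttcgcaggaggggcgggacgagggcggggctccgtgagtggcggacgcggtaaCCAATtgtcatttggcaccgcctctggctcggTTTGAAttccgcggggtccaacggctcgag
Top2a: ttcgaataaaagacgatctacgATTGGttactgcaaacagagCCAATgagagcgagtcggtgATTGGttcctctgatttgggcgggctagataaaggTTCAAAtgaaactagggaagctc
Uhrf1: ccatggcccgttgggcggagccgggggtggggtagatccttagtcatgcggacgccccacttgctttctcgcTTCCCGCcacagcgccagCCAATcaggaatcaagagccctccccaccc
Ccnb2 and Top2a each hold 3 CCAAT boxes in this window, and Top2a and Prc1 hold a CHR within 30 bases of the start. Within 250 bases before a start, CCAAT was found in 24 of 34 mitosis genes with a promoter in the table (70.6%) and 23 of 35 replication genes (65.7%), against 40.6% of all tested genes with one. The CHR letters were in 11 of 34 mitosis genes (32.4%) against 12.8%. The E2F letters were in 10 of 35 replication genes (28.6%), in none of the 34 mitosis genes, and in 8.21% of all.

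Of 30 ribosome biogenesis genes, 26 fell as deposited and none rose (median -0.97); after scaling 14 fell and 1 rose. The snoRNP core proteins Nop58, Nop56 and Dkc1 were among them, Nop58 from 38.3, 34.7 and 37.2 to 10.2, 8.40 and 10.2 RPKM (log2 -1.84 ± 0.14, adjusted p = 3.43e-08). Rrp1b and Dkc1 fell by log2 sizes of -1.76 and -1.49.

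Genes of mitochondrial respiration rose. Of 36 complex I genes, 22 rose and none fell (median 1.20), and of 39 genes of complexes II to V, 36 rose and none fell (median 1.41); after scaling 32 and all 39 rose. Ndufs1, the largest complex I subunit, went from 27.6, 28.6 and 28.2 to 70.2, 63.5 and 66.5 RPKM (log2 1.22 ± 0.14, adjusted p = 2.69e-06). Sdha, of succinate dehydrogenase, went from 77.9, 79.4 and 76.1 to 301, 273 and 258 RPKM (log2 1.82 ± 0.14, adjusted p = 2.64e-08), and Uqcrc2, of complex III, from 56.2, 51.5 and 51.6 to 190.0, 179 and 187 RPKM (log2 1.78 ± 0.15, adjusted p = 9.61e-08). Atp5b, the catalytic chain of ATP synthase, went from 449.7, 447 and 445 to 998, 1043 and 1108 RPKM (log2 1.23 ± 0.13, adjusted p = 1.43e-06). The 3 day 4 libraries were close in these genes, library 3 included, but the genes were named for a small adjusted p, which favours close libraries.

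Ndufb7 and Atp5e, named among the members that did not pass, depended on library 3. Ndufb7 was at 95.8, 101 and 106 RPKM and then 107, 95.5 and 414 RPKM (log2 0.67 ± 0.48, adjusted p = 0.243; log2 -0.001 without library 3), and Atp5e at 150.3, 157 and 155 and then 214, 181 and 962 RPKM (log2 1.11 ± 0.52, adjusted p = 0.0782; 0.35). In both, libraries 1 and 2 lay near day 0 or little above it and library 3 far above. Without library 3, 17 of the 36 complex I genes and 30 of the 39 others rose. The transcripts of both lists are short, with medians of 1643 and 1869 bases against 4356 over all tested genes, and the deviation of library 3 followed length as above. With a length trend taken out of each library, 32 of the 36 complex I genes rose (median 1.26). So did all 38 of the others with a length (median 1.59). The cause of these shifts was not tested.

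Enzymes of the tricarboxylic acid cycle rose in 14 of 18 cases and fell in none (17 after scaling, 14 without library 3). Pdhb, of pyruvate dehydrogenase, went from 42.7, 37.7 and 38.3 to 159, 140.3 and 222 RPKM (log2 2.08 ± 0.18, adjusted p = 9.49e-08), and Mdh2, mitochondrial malate dehydrogenase, from 164, 168 and 164 to 621, 563 and 1033 RPKM (log2 2.0998 ± 0.19, adjusted p = 1.91e-07). Ppargc1b, the coactivator PGC-1beta that drives mitochondrial growth in osteoclasts, went from 1.39, 1.43 and 1.33 to 24.96, 18.3 and 12.04 RPKM (log2 2.97 ± 0.20, adjusted p = 5.55e-09), and Perm1, an inducer of respiratory genes, from 0.321, 0.304 and 0.470 to 10.2, 8.11 and 3.98 RPKM (log2 2.55 ± 0.28, adjusted p = 1.57e-06). Esrra, the nuclear receptor ERRalpha, passed with all libraries (log2 0.80 ± 0.27, adjusted p = 0.0203) and not without library 3 (adjusted p = 0.0673), day 0 library 1 or day 4 library 1. Other mitochondrial biogenesis factors did not share this direction: 4 of 15 rose and 6 fell (5 and 3 after scaling), Nrf1, Gabpb1 and Polg among the latter (log2 -0.92, -1.04 and -1.07). Nrf1 and Gabpb1 did not pass once a trend with gene length was taken out of each library.

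Glycolysis genes were mostly lower: 16 of 23 fell and 3 rose (12 and 5 after scaling). Slc2a1 (GLUT1), Slc2a3 (GLUT3) and the hexokinase Hk3 fell (log2 -1.24, -2.50 and -3.40), Hk3 from 121, 129 and 127 to 14.2, 8.68 and 10.9 RPKM. Pkm, pyruvate kinase, went from 1282, 1391 and 1301 to 461, 412 and 501 RPKM (log2 -1.53 ± 0.16, adjusted p = 8.16e-07). Ldhb, the lactate dehydrogenase chain of oxidative tissues, was the exception in size, from 2.83, 2.90 and 2.68 to 227, 189 and 421 RPKM (log2 6.11 ± 0.24, adjusted p = 2.7e-11), while Ldha, the chain of glycolytic tissues, did not pass, at 321, 318 and 312 and 218, 200.3 and 333 RPKM. The Ldhb and Ldha chains thus stood at 2.81 and 317 RPKM on average at day 0 and at 279 and 250.5 RPKM at day 4.

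Of 18 genes of serine synthesis and other ATF4 targets, 10 fell and 2 rose (median -0.84; 9 and 3 after scaling, 10 and 1 without library 3). Psat1, an enzyme of serine synthesis, went from 46.0, 45.0 and 46.0 to 1.62, 1.56 and 1.52 RPKM (log2 -4.19 ± 0.21, adjusted p = 3.14e-10). Slc7a5, a large neutral amino acid carrier, went from 18.3, 19.1 and 19.5 to 1.65, 1.37 and 0.707 RPKM (log2 -3.18 ± 0.22, adjusted p = 1.11e-08), and Shmt2 and Mthfd2 of the mitochondrial folate cycle fell (log2 -1.97 and -1.12). Atf4 itself did not pass, at 94.3, 95.1 and 94.7 and 91.1, 86.5 and 141 RPKM.

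In lipid synthesis 12 of 29 genes fell and 1 rose (7 and 3 after scaling), a share of falls (41.4%) near the 44.2% of all genes. Fasn, fatty acid synthase, went from 15.4, 18.3 and 18.2 to 3.08, 2.25 and 1.49 RPKM (log2 -2.51 ± 0.22, adjusted p = 1.36e-07). Insig1, a brake on sterol synthesis, was the member that rose (log2 0.50 ± 0.14, adjusted p = 0.00546). Of 14 genes of cholesterol efflux, 4 rose and 5 fell (6 and 3 after scaling), with Npc2, a lysosomal cholesterol carrier, from 139, 139 and 138 to 488, 532 and 845 RPKM (log2 2.11 ± 0.20, adjusted p = 2.55e-07) and Lpl, lipoprotein lipase, from 627, 525 and 578 to 219, 196 and 275 RPKM (log2 -1.33 ± 0.20, adjusted p = 4.54e-05).

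Lysosomal genes went both ways. Of 29, 11 rose and 10 fell (18 and 8 after scaling). Hexa, a hexosaminidase chain, went from 259.8, 258 and 263 to 869, 901 and 1288 RPKM (log2 1.94 ± 0.17, adjusted p = 1.33e-07). Glb1, beta-galactosidase, went from 30.7, 32.6 and 31.8 to 190.4, 156 and 185 RPKM (log2 2.44 ± 0.13, adjusted p = 4.38e-10). Ctsl (cathepsin L) went from 409.8, 404 and 392 to 65.1, 56.5 and 76.9 RPKM (log2 -2.60 ± 0.14, adjusted p = 8.44e-10), Ctsc from 49.7 to 50.3 to 5.09 to 8.52 RPKM (log2 -2.81 ± 0.18, adjusted p = 4.33e-09), and the membrane protein Lamp1 from 742, 703 and 741 to 238, 194 and 187 RPKM (log2 -1.82 ± 0.16, adjusted p = 1.94e-07). Among cathepsins, then, K rose and L and C fell. Ctsd, cathepsin D, was lower as deposited (log2 -0.87 ± 0.21, adjusted p = 0.00207) and did not pass after scaling (log2 -0.31).

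Genes of monocytes and macrophages were lower. Of 24 identity genes, 19 fell and none rose (median -2.25; 17 and 4 after scaling, 19 and 1 without library 3). Cx3cr1, the fractalkine receptor of patrolling and tissue macrophages (chromosome 9, 119901616 to 120069879, minus strand), went from 100.4, 102 and 102 to 1.48, 1.15 and 1.18 RPKM (log2 -5.50 ± 0.15, adjusted p = 2.67e-13). F13a1, a coagulation transglutaminase of monocytes, went from 252, 256 and 240.0 to 9.09, 5.79 and 4.89 RPKM (log2 -5.08 ± 0.17, adjusted p = 6.15e-12), and Siglec1 (CD169), a sialic acid receptor, from 88.3, 111 and 104 to 6.39, 3.98 and 0.493 RPKM (log2 -4.74 ± 0.59, adjusted p = 6.02e-06; log2 -4.07 without library 3, which was the lowest). Their groups were far apart. Ccr2 and Ly6c2, of inflammatory monocytes, fell (log2 -2.94 and -2.38), though reads of the Ly6c copies cannot be placed with certainty. Csf1r, the M-CSF receptor that osteoclast precursors keep, did not pass, at 347, 377 and 361 and 504, 426 and 279 RPKM, nor did Cd68, at 925, 888 and 926 and 1277, 1469 and 1096 RPKM, and both were higher after scaling (log2 0.68 and 1.04). Lyz2, lysozyme and among the 8 most abundant nuclear coding genes at day 0, went from 7785, 7913 and 7750.4 to 2782, 2449 and 3423 RPKM (log2 -1.45 ± 0.20, adjusted p = 1.59e-05).

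Mice without Irf8 make granulocytes in excess. Summed over the 20 listed genes, granulocyte transcripts stood at 324 to 342 RPKM at day 0 and 24.1 to 33.3 RPKM at day 4. At day 0 the sum was 117 to 128 RPKM in WT and 1221 to 1607 RPKM in mock, which is also Irf8-/-. The part of genotype in these levels was not tested. Of the 12 genes tested, 11 fell in KO and none rose (median -2.68). Ngp, a granule protein, went from 21.1, 26.5 and 26.9 to 0.850, 1.42 and 0.444 RPKM (log2 -3.79 ± 0.18, adjusted p = 2e-10), Lcn2 (lipocalin 2) from 12.6, 12.97 and 13.7 to 0.562, 0.465 and 0.853 RPKM (log2 -3.12 ± 0.11, adjusted p = 1.21e-11), and Chil3, shared by granulocytes and macrophages, from 39.7, 46.2 and 40.9 to 1.76, 1.55 and 2.97 RPKM (log2 -3.83 ± 0.15, adjusted p = 3.31e-11). In the myeloid progenitor list 4 of 6 genes fell, with Cd34 from 5.98, 6.68 and 6.74 to 0.181, 0.281 and 0.162 RPKM (log2 -2.63 ± 0.13, adjusted p = 3.5e-10) and the cofactor Lmo2 from 66.5 to 67.8 to 9.89 to 14.7 RPKM (log2 -2.39 ± 0.17, adjusted p = 1.65e-08).

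Chemokines held the largest fall of all named genes. Ccl2, which draws monocytes (chromosome 11, 82035571 to 82037453, plus strand), went from 265, 248 and 263 to 3.32, 1.23 and 4.66 RPKM (log2 -6.10 ± 0.29, adjusted p = 1.4e-10), and its neighbour Ccl7 (chromosome 11, 82045712 to 82047525, plus strand) from 90.5, 71.4 and 81.8 to 0.459, 0.248 and 0.872 RPKM (log2 -5.77 ± 0.40, adjusted p = 1e-08). Cxcl14 went from 49.2, 48.6 and 48.7 to 1.10, 0.961 and 1.11 RPKM (log2 -4.60 ± 0.19, adjusted p = 4.1e-11). Of 16 chemokines, 10 fell and none rose (8 and 1 after scaling). Ccl9, a chemokine that osteoclasts make, did not pass, at 263, 251 and 248 and 207, 235 and 276 RPKM. Of 24 cytokine and chemokine receptors 9 rose and 13 fell (10 and 9 after scaling). Ccr1, the receptor for Ccl9, went from 7.77, 7.18 and 7.43 to 159, 158 and 138 RPKM (log2 4.17 ± 0.20, adjusted p = 1.42e-10), Ccr3 and Cxcr4 rose (log2 2.03 and 1.39), and the interleukin receptors Il17ra and Il4ra fell (log2 -3.23 and -2.20).

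Of 21 Toll-like receptors and partners, which sense microbes, 14 fell and 1 rose (66.7% and 4.76%; 13 and 2 after scaling). Among the falls were Tlr13, which senses bacterial ribosomal RNA, from 118, 106 and 114 to 14.9, 10.4 and 5.37 RPKM (log2 -3.44 ± 0.33, adjusted p = 3.81e-07), and Tlr2 from 15.6 to 17.1 to 2.43 to 3.93 RPKM (log2 -2.05 ± 0.20, adjusted p = 4.24e-07). Of 14 complement and Fc receptor genes 7 fell, a share near the 44.2% of all genes, and 4 rose (28.6%, against 13.6%). C5ar1, the C5a receptor, went from 511, 529 and 499.7 to 31.1, 24.3 and 25.1 RPKM (log2 -4.22 ± 0.17, adjusted p = 4.05e-11), C3ar1 from 160.4 to 172 to 8.76 to 18.03 RPKM (log2 -3.54 ± 0.25, adjusted p = 1.09e-08) and the high-affinity IgG receptor Fcgr1 from 9.78 to 11.98 to 0.0985 to 0.414 RPKM (log2 -3.22 ± 0.13, adjusted p = 4.1e-11). Itgax, C1qb and C3 were among those that rose (log2 1.56, 1.25 and 1.07). Rnase4, a secreted ribonuclease outside these lists, was among the largest falls, from 131, 125 and 123 to 2.57, 1.46 and 2.28 RPKM (log2 -5.38 ± 0.27, adjusted p = 3.37e-10).

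Many interferon-stimulated genes are ones that IRF8 helps to activate. The median level of the type I list was 4.36 RPKM at day 0 and 1.35 RPKM at day 4 in KO cells, against 16.2 and 16.8 RPKM in WT. In mock cells, which are also Irf8-/-, it was 23.9 and 24.3 RPKM, above WT. There 9 of these genes rose and 13 fell (3 and 19 after scaling), and the part of Irf8 in these levels was not tested. Of 31 type I genes, 21 fell in KO and none rose (median -1.21, and 17 fell after scaling). Oas1a, an oligoadenylate synthase of the antiviral RNase L pathway, went from 15.2, 17.4 and 14.2 to 3.89, 2.51 and 3.95 RPKM (log2 -1.91 ± 0.18, adjusted p = 2.49e-07), the signalling factor Irf9 from 13.05, 14.5 and 13.8 to 4.23, 3.14 and 2.52 RPKM (log2 -1.80 ± 0.17, adjusted p = 2.66e-07), and Dhx58 (LGP2) from 6.22 to 7.17 to 1.16 to 1.52 RPKM (log2 -1.72 ± 0.18, adjusted p = 1.13e-06). Isg15 did not pass with all libraries and was lower without library 3 (log2 -0.88). Of 13 interferon-gamma-induced GTPases 8 fell and none rose (7 and 1 after scaling), with Irgm1 from 12.2 to 12.9 to 3.29 to 4.40 RPKM (log2 -1.45 ± 0.16, adjusted p = 2.41e-06).
The promoter of Oas1a (chr5:120907526-120907645, minus strand, GRCm38.p6, the 120 bases before the RefSeq start) is shown for its interferon-stimulated response element (ISRE, letters TTTCNNTTTC), of which the capitals hold 2 overlapping matches read in reverse.
Oas1a: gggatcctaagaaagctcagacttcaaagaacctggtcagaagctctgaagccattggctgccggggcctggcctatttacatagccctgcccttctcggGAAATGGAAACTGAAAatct
The ISRE letters were in 9 of 22 type I genes with a promoter (40.9%) and in 3.51% of all tested genes with one.

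Antigen presentation genes went both ways. In the class II list 5 of 10 genes rose and 2 fell (5 and 0 after scaling): H2-Aa went from 22.5, 19.9 and 21.4 to 42.5, 34.1 and 50.9 RPKM (log2 0.95 ± 0.18, adjusted p = 0.000305), H2-Eb1 from 10.9, 10.3 and 11.8 to 23.5, 19.4 and 40.6 RPKM (log2 1.20 ± 0.24, adjusted p = 0.000494), and Ifi30, a lysosomal thiol reductase, from 138, 139 and 133 to 387, 329 and 663 RPKM (log2 1.68 ± 0.24, adjusted p = 2.31e-05). Library 3 was the highest for each, and the 3 genes remained higher without it. In the class I list 2 of 14 rose and 4 fell (5 and 4 after scaling), and without library 3 1 rose and 7 fell, with a median of -0.49 in place of -0.18. H2-M3 and the peptide trimmer Erap1 fell (log2 -2.05 and -2.29), the peptide transporter chain Tap2 rose (log2 1.19), and H2-T23 passed with all libraries (log2 0.73) and not without library 3 (log2 0.38) or without day 0 library 1 or 3.

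Of 24 regulators of cell death, 7 rose and 10 fell (29.2% and 41.7%, against 13.6% and 44.2% of all genes), and 10 rose and 6 fell after scaling. Pmaip1 (Noxa), which promotes death by binding Mcl1, went from 2.11, 2.03 and 1.99 to 29.4, 25.4 and 31.7 RPKM (log2 3.29 ± 0.18, adjusted p = 7.81e-10). Its partner Mcl1, which protects cells, went from 86.5, 84.8 and 84.6 to 165, 164 and 161 RPKM (log2 0.93 ± 0.12, adjusted p = 9.7e-06), and the inhibitor of apoptosis Birc3 from 6.54 to 6.93 to 23.9 to 39.9 RPKM (log2 2.05 ± 0.19, adjusted p = 2.27e-07). Bcl2l1 (Bcl-xL) went from 33.3, 36.2 and 35.5 to 3.46, 2.74 and 2.47 RPKM (log2 -3.22 ± 0.18, adjusted p = 8.57e-10), Bid from 41.5, 40.8 and 41.02 to 4.79, 3.25 and 5.03 RPKM (log2 -2.99 ± 0.19, adjusted p = 4.23e-09) and Bcl2 from 4.01 to 4.63 to 0.124 to 0.467 RPKM (log2 -1.97 ± 0.18, adjusted p = 2.33e-07). Among the protective members, Mcl1 rose and Bcl2l1 and Bcl2 fell.

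The same 4 days were compared with WT cells by the difference of the 2 changes, which passed for 3182 genes (27.6%), 675 with a more positive change in KO (5.85%) and 2507 with a more negative one (21.7%). In WT alone 2027 genes rose (17.6%) and 2951 fell (25.6%). The WT counts leaned on few day 4 libraries: 1158 rose and 885 fell without WT day 4 library 3, and 2354 and 3936 without WT day 4 library 1. WT day 4 library 3 had a summed RPKM of 584689 against 418410 in library 1. Its deviation from their mean followed gene length (rank correlation -0.59), and that of library 1 mirrors it. The WT change had a rank correlation of -0.411 with gene length. With a length trend taken out of each library, the difference passed for 1993 genes in the positive and 1890 in the negative direction. The cause of this shift was not tested. After scaling the difference passed for 1544 genes (13.4%) in the positive and 1533 (13.3%) in the negative direction. The resorption program rose in both: 16 of 18 genes in WT, with 7 rising more and none less in KO. Mmp14 was at 12.05, 13.5 and 12.96 RPKM in WT at day 0 and 206 and 273 RPKM at day 4, so that its rise was larger from a lower start in KO (difference of log2 3.82 ± 0.30, adjusted p = 1.91e-07). Atp6v0d2 was also higher in WT at day 0, at 13.02, 11.99 and 12.2 RPKM, and reached 436 and 356 RPKM (difference of log2 2.85 ± 0.32, adjusted p = 8.59e-06). Ctsk reached 5606 and 7394 RPKM in the 2 WT libraries against 11089, 17582 and 17939 in KO, and the difference of its changes did not pass (log2 1.01 ± 0.37, adjusted p = 0.057). That of Acp5 did (log2 1.12 ± 0.34, adjusted p = 0.0234), but not without WT day 4 library 1, WT day 0 library 3, KO day 0 library 2 or KO day 0 library 3, nor with array weights.

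The 6 largest differences in the negative direction were those of Id3, Id1, Npy and 3 cyclins. All but 1 of 43 replication genes (42) and of 40 mitosis genes (39) had a more negative change in KO. The starting levels differed: at day 0 the median mitosis gene had 29.8 RPKM in KO cells against 0.683 RPKM in WT cells, and at day 4 at 1.36 and 1.85 RPKM. Ccna2 was at 0.892, 0.556 and 0.650 RPKM in WT at day 0 and 2.50 and 3.48 RPKM at day 4 (difference of log2 -5.92 ± 0.31, adjusted p = 6.31e-09), Ccnb2 at 0.798, 1.06 and 0.828 and 3.20 and 6.84 RPKM (difference of log2 -5.92 ± 0.35, adjusted p = 1.57e-08) and Ccnd1 at 2.95, 2.78 and 2.13 and 4.71 and 1.53 RPKM (difference of log2 -6.03 ± 0.38, adjusted p = 2.58e-08). At day 4 the KO and WT libraries overlapped for Ccna2, and for Ccnb2 the KO libraries lay just under those of WT, so the differences sat mainly in the day 0 levels. Id1 and Id3, which block helix-loop-helix factors, fell in KO from 34.2, 37.9 and 36.1 to 1.27, 0.819 and 1.88 RPKM and from 51.6, 59.1 and 48.8 to 13.1, 8.68 and 20.3 RPKM, while in WT they went from 0.166, 0.104 and 0.258 to 3.70 and 6.31 RPKM and from 6.86, 6.13 and 6.33 to 126 and 205 RPKM (differences of log2 -6.34 ± 0.53, adjusted p = 4.19e-07, and log2 -6.36 ± 0.41, adjusted p = 2.79e-08). Npy, neuropeptide Y, went from 54.8, 48.8 and 48.4 to 8.25, 7.23 and 18.1 RPKM in KO and from 2.30, 3.20 and 2.39 to 37.6 and 74.4 RPKM in WT (difference of log2 -6.09 ± 0.48, adjusted p = 1.96e-07).

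In the positive direction, Prdm1 was at 8.45, 8.25 and 8.64 RPKM in WT at day 0 and 20.5 and 7.31 RPKM at day 4 (difference of log2 3.70 ± 0.49, adjusted p = 4.1e-05). Tmem176a, a membrane protein of myeloid cells, went from 1.69, 1.75 and 1.76 to 24.5, 17.5 and 32.7 RPKM in KO and from 48.1, 51.96 and 59.4 to 32.0 and 42.1 RPKM in WT (difference of log2 3.72 ± 0.41, adjusted p = 7.53e-06). Ms4a4a, a tetraspan protein of macrophages, was at 17.5, 18.9 and 5.39 RPKM in KO at day 4 and fell in WT from 228, 238 and 232 to 63.1 and 11.2 RPKM (difference of log2 3.95 ± 0.77, adjusted p = 0.00119). Malat1, a long nuclear RNA, reached 376, 264 and 93.5 RPKM in KO from 43.2, 41.8 and 45.5 RPKM, with library 3 lowest (difference of log2 3.62 ± 0.66, adjusted p = 0.000677), and Tsku (Tsukushi), a secreted leucine-rich protein, 40.1, 32.3 and 24.9 RPKM from 5.15, 5.22 and 4.98 RPKM (difference of log2 3.33 ± 0.40, adjusted p = 1.59e-05). Of the 31 type I interferon-stimulated genes, 12 rose and 4 fell in WT, and 20 had a more negative change in KO.

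Mock cells are the other Irf8-/- control, measured in separate libraries. There 5789 of 11374 genes rose (50.9%) and 2574 fell (22.6%), and after scaling 4127 (36.3%) and 4078 (35.9%). Of the 301 genes that rose by a log2 of 2 or more in KO, 298 were tested in mock and 278 of them (93.3%) rose there too, with 8 lower. Of the 741 that fell by as much, 738 were tested, and 303 (41.1%) rose and 264 (35.8%) fell in mock. After scaling of the mock libraries, 267 of the 298 (89.6%) rose and 11 fell, and 200 of the 738 (27.1%) rose and 355 (48.1%) fell. Large rises in KO were thus mostly rises in mock as well, while large falls were split, with more rises than falls as deposited and more falls than rises after scaling. The difference of the changes passed for 8154 of 11956 genes (68.2%), 1664 more positive in KO (13.9%) and 6490 more negative (54.3%). After scaling the balance turned, with 4048 more positive (33.9%) and 3700 more negative (30.9%).

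Osteoclast effectors rose in mock from higher starting levels and to lower end levels. Ctsk was at 33.7, 30.2 and 29.5 RPKM at day 0 and 3007, 3162 and 3148 RPKM at day 4 in mock (difference of log2 5.04 ± 0.25, adjusted p = 1.99e-19), and Acp5 at 19.96, 24.7 and 17.3 and 2033, 2091 and 2044 RPKM (difference of log2 4.25 ± 0.25, adjusted p = 4.04e-17). Ldhb went from 13.8, 19.7 and 22.8 to 50.97, 52.8 and 49.5 RPKM (difference of log2 4.69 ± 0.25, adjusted p = 3.25e-18). Cell division genes did not share the fall in mock: 31 of 40 mitosis genes rose and 2 fell, and 27 of 43 replication genes rose and 6 fell, beside 50.9% and 22.6% of all genes. After scaling 24 mitosis genes rose and 5 fell, and 19 replication genes rose and 14 fell. The change was more negative in KO for 39 mitosis and 41 replication genes, and after scaling for 39 and 38. Top2a went from 12.9, 13.8 and 17.8 to 42.0, 43.7 and 44.2 RPKM in mock (difference of log2 -6.39 ± 0.26, adjusted p = 5.17e-22), Mki67 from 7.24, 7.68 and 15.7 to 17.5, 20.3 and 24.3 RPKM (difference of log2 -6.09 ± 0.31, adjusted p = 1.01e-18), and Ccnd1 from 28.8, 37.1 and 34.996 to 70.9, 69.4 and 68.9 RPKM (difference of log2 -6.99 ± 0.24, adjusted p = 8.3e-24). Uhrf1, Plk1 and Anln, an actin-binding protein of the cleavage furrow, differed by log2 -6.16, -5.95 and -6.10.

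The respiratory chain also differed between KO and mock. In mock 4 of 36 complex I genes rose and 25 fell (3 and 31 after scaling), and 33 had a more positive change in KO (36 after scaling). In WT 34 of 36 complex I genes and 38 of 39 genes of complexes II to V rose, and none fell. The change was more negative in KO than in WT for 1 and 2 of them and more positive for none. The rank correlation between a gene's change and its exon length, over the genes with a length, was 0.466 in mock (11287 genes) and -0.184 in KO (11447 genes). It was -0.021 in KO without library 3 (11425 genes) and -0.411 in WT (11447 genes), and complex I transcripts are short. The part of length in the difference between KO and mock was not tested. The fatty acid carrier Fabp4 went from 0.776, 0.737 and 0.464 to 1.94, 3.09 and 7.14 RPKM in KO and from 39.4, 30.1 and 50.9 to 3.08, 4.98 and 4.72 RPKM in mock (difference of log2 4.44 ± 0.41, adjusted p = 8.98e-12), and the homeobox gene Rhox8 from 10.98, 7.75 and 107 to 0.527, 0.633 and 0.455 RPKM in mock with no change that passed in KO (difference of log2 4.42 ± 1.15, adjusted p = 0.000933). For the histone gene Hist2h2aa1 the difference was also among the 6 largest (log2 4.81), but its reads cannot be told from those of near-identical copies.

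**Figure D4:**
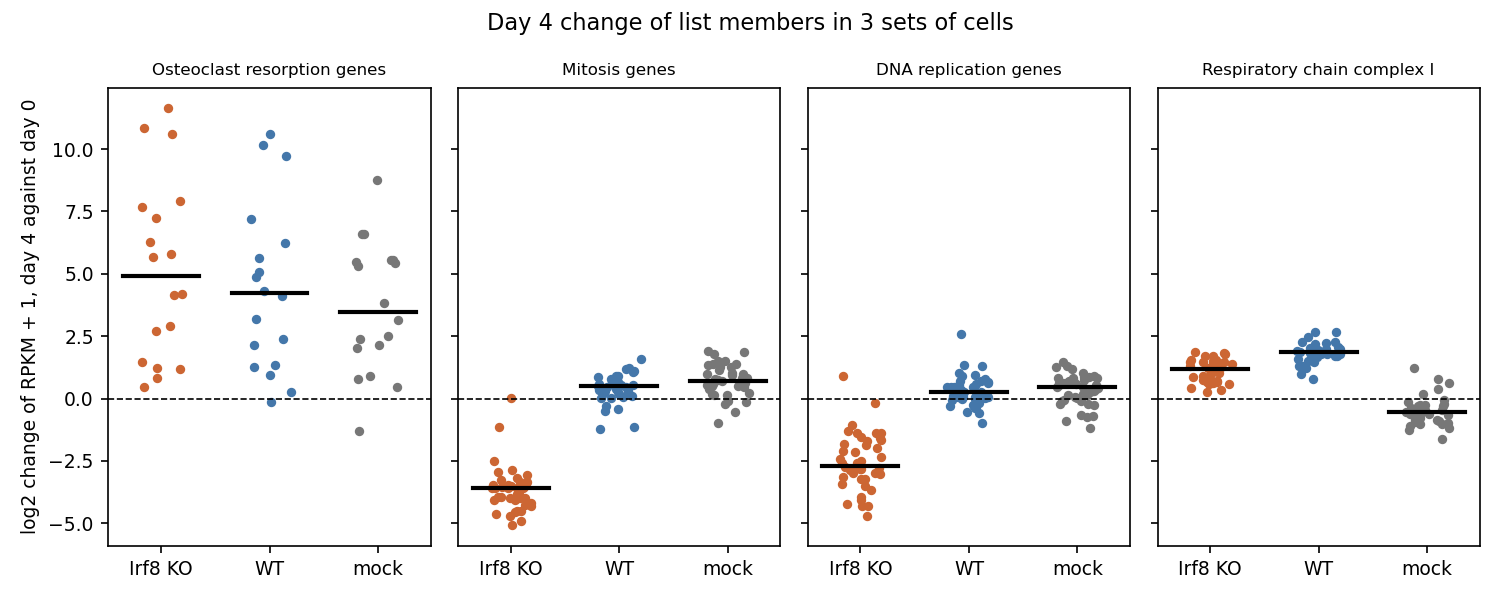
Log2 change from day 0 to day 4 of each tested member of the mitosis, DNA replication, complex I and resorption lists in Irf8 KO, WT and mock cells (y axis; black bars, list medians; dashed line, 0). Resorption genes lie above 0 in all 3 sets but for 1 in WT and 1 in mock, the median of the mitosis genes lies below 0 in KO alone, and complex I genes lie mostly below 0 in mock.

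KO cells were also sampled at day 8 of RANKL, and those values are set beside the others without a test. The median mitosis gene stood at 10.1 RPKM at day 8, after 29.8 and 1.36 RPKM, and all day 8 libraries lay above all day 4 libraries in 37 of 40 mitosis genes and 38 of 43 replication genes, against 21.4% of all tested genes. Of these, 36 mitosis and 32 replication genes had day 8 values between those of day 4 and day 0. Ccnb2 was at 37.6, 29.4 and 32.5 RPKM and Ccnd1 at 35.4, 31.7 and 31.3 RPKM at day 8. As deposited, the day 4 level was thus the lowest of the 3 days for most cell division genes. The day 8 libraries held 15.6, 33.3 and 34.4 M alignments, with a summed RPKM of 468309, 541663 and 545575. The day 8 values were not scaled. Ctsk was at 11352, 11600 and 12314 RPKM and Acp5 at 7306, 10449 and 11572 RPKM, and the median resorption gene at 135 RPKM against 179 at day 4. Steap4, Src and Prdm1 stood lower at day 8, at 29.2, 15.6 and 15.8, 20.9, 46.3 and 44.6 and 10.3, 5.95 and 6.46 RPKM. Ccl2 was at 40.7, 33.4 and 32.0 RPKM and Adam8 at 66.02, 102 and 92.1 RPKM, above day 4 and below day 0, whereas F13a1 was listed at 0 in all 3 libraries and Cx3cr1 stood at 4.71, 3.49 and 3.95 RPKM.

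**Figure D5:**
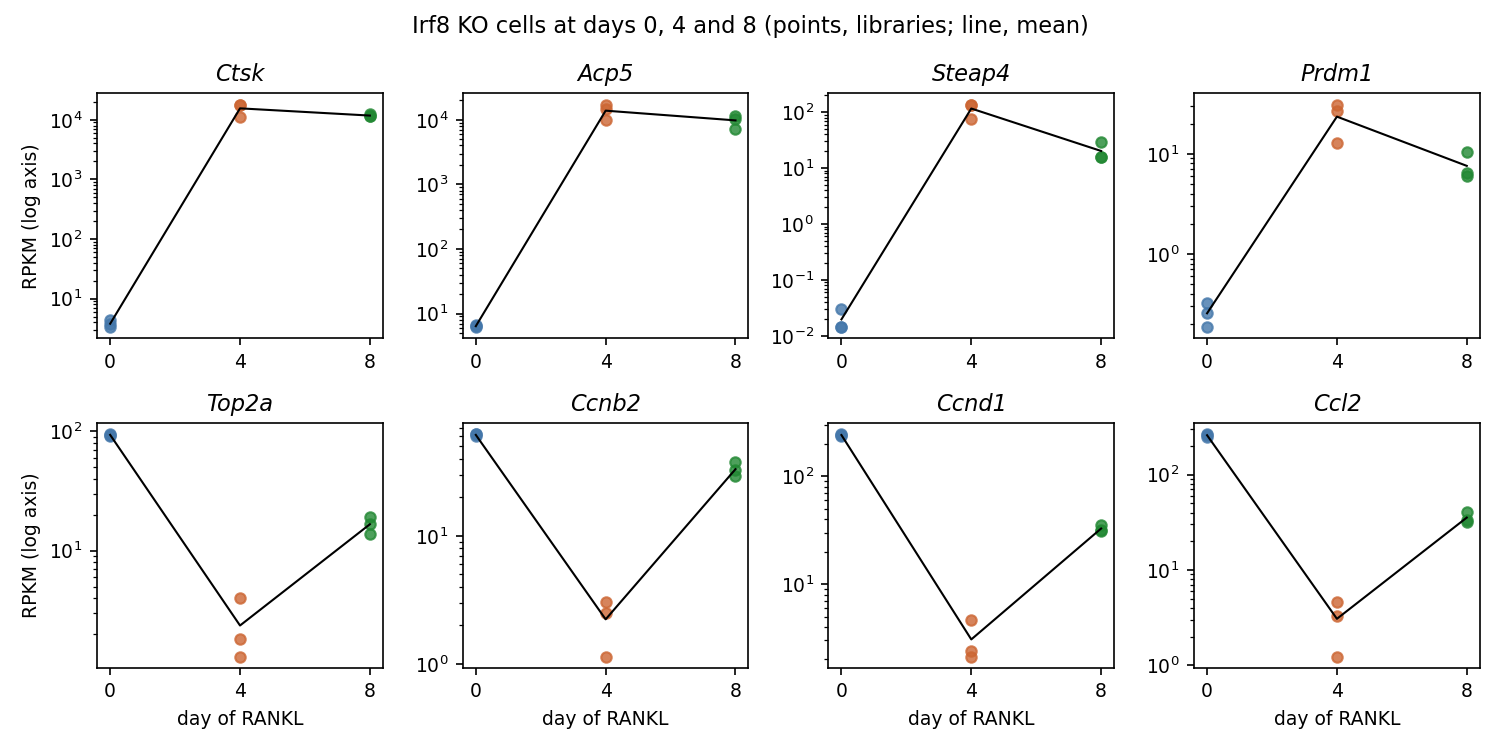
RPKM of 8 genes in Irf8 KO cells at days 0, 4 and 8 (x axis, day of RANKL; y axis, RPKM, log scale; points, 3 libraries per day; lines join the means). Ctsk and Acp5 stay above 1000 RPKM from day 4, while Top2a, Ccnb2, Ccnd1 and Ccl2 are lowest at day 4 and Steap4 and Prdm1 highest.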

How the data were processed

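The deposited values are RPKM per gene and library, made by the authors with Partek from Tophat alignments to mm10, per the file headers. The sources used here do not name the gene annotation. The submitters' processing notes list TopHat2 2.1.0. Read counts were not used. Genes reaching 1 RPKM in 2 or more of the fitted libraries were tested on log2(RPKM + 1), which understates changes of low genes, with limma 3.58.1 (R 4.3.3; group means, trended moderation, two-sided, Benjamini-Hochberg over all genes tested, threshold 0.05). KO and WT were fitted on 17 libraries with 11 residual degrees of freedom, mock on 33, and KO against mock on 50. Scaling is median of ratios. Gene lengths are from GENCODE M21 on GRCm38, the build called mm10, and were matched for 98.3% of genes. Members and lists were chosen with earlier results of these data known. Genes named are the 12 largest rises and falls with libraries that do not overlap, the most abundant, up to 4 per list and direction by adjusted p with up to 2 that did not pass, and the 6 largest differences each way. Genes outside this rule are said to be so. Results of some genes under this rule are not reported here.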

Additional observations from a re-analysis of the deposited data

Results flagged for a closer look

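The day 4 change differed between the sets of cells by a test of the difference itself (limma, adjusted over all genes tested), for 3182 genes between KO and WT and for 8154 genes between KO and mock. Between KO and WT the largest positive differences were those of Ms4a4a (log2 3.95), Mmp14 (3.82), Tmem176a (3.72), Prdm1 (3.70), Malat1 (3.62) and Tsku (3.33). The largest negative ones were those of Id3 (log2 -6.36), Id1 (-6.34), Npy (-6.09), Ccnd1 (-6.03), Ccnb2 (-5.92) and Ccna2 (-5.92).

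Between KO and mock the largest positive differences were those of Ctsk (log2 5.04), Hist2h2aa1 (4.81), Ldhb (4.69), Fabp4 (4.44), Rhox8 (4.42) and Acp5 (4.25). The largest negative ones were those of Ccnd1 (log2 -6.99), Top2a (-6.39), Uhrf1 (-6.16), Anln (-6.10), Mki67 (-6.09) and Plk1 (-5.95). Ctsk and Acp5 rose in both sets, and Top2a and Ccnd1 fell in KO and rose in mock.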

How the results depend on the processing

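Of the 176 genes named as passing the KO comparison, none changed direction under any setting tried and 8 lost the call under at least 1 (Actb, Cebpa, Ctsd, Esrra, Gabpb1, H2-T23, Nrf1 and Runx1). These genes were named mostly for large changes or small adjusted p in the same libraries. Their stability is therefore no measure of that of all genes: of all 5099 lower genes, 2873 were also lower after scaling. With the settings tried the count of genes differing in KO ran from 5455 (scaled and without day 4 library 3, 2686 higher and 2769 lower) to 8608 (the 6 KO libraries alone without day 4 library 3), against 6672, and from 5784 to 6682 with each library left out in turn. It was 6576 with a pseudocount of 0.1, 7017 without the filter, 5657 after scaling, 6520 with array weights, 6431 in the 6 KO libraries alone and 6287 with a length trend taken out of each library (3105 higher and 3182 lower). The count for KO against WT, 3182, was 2957, 3367, 3077 and 3883 (1993 and 1890) under the pseudocount, no filter, scaling and length trend, and 2072 with array weights, where the cause was not tested. It ran from 2589 to 4560 with each library left out, the latter without KO day 4 library 3, and was 4345 without the number 3 libraries of day 4. For mock, 8363, it ran from 7884 to 9720, the latter without the filter, with 4127 higher and 4078 lower after scaling, and for KO against mock, 8154, from 7748 (scaled, 4048 and 3700) to 8849. Settings that leave out KO day 4 library 3 together with a further change, or the number 3 libraries of day 4, were chosen after seeing the data. A test that used replicate number as a block gave 6650 for KO, 2863 for KO against WT, 8395 for mock and 8158 for KO against mock. The deviations of same-numbered day 0 and day 4 KO libraries correlated at -0.18, -0.05 and -0.17, so the numbers were not taken to pair them. No library correlated best with its own number.

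The 6 genes Atf4, Atp6v0d1, Ccl9, Csf1r, Ndufb7 and Ldha, reported as not passing, changed sign under some settings, and no value of the opposite sign passed. Over the fits that each left out a library, the log2 change of Atf4 ran from -0.092 to 0.256, of Atp6v0d1 from -0.184 to 0.294, of Ccl9 from -0.204 to 0.003, of Csf1r from -0.069 to 0.357 and of Ndufb7 from -0.001 to 1.051. In the 6 KO libraries alone without day 4 library 3, Atf4 stood at -0.092, Atp6v0d1 at -0.184 and Ndufb7 at -0.001. Ccl9 was at 0.465 after scaling, 0.313 when scaled without library 3 and 0.296 with the length trend taken out, and Ldha at 0.186 after scaling and 0.041 with the length trend taken out, and the cause was not tested. Read counts were not recovered from the RPKM values, so no counting interval was computed, and changes of genes near 1 RPKM are understated by the added 1.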

Other observations

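Values of some further genes that changed are given here. Vegfc, Abca1, Abcg1, Csf2rb, Cebpa and Runx1 belong to lists already counted above, and Slc37a2 and Bmp2 were named after their values were seen. Cd4, a coreceptor of T cells that myeloid cells can carry, was at 0.743, 0.552 and 0.614 RPKM at day 0 and 12.5, 10.1 and 5.87 RPKM at day 4 (log2 2.63 ± 0.27, adjusted p = 7.39e-07), while the summed T and NK cell markers stayed at or below 0.304 RPKM in all 6 libraries. At day 8 it was at 1.37, 1.24 and 1.23 RPKM. Slc37a2, a sugar phosphate carrier, went from 48.2, 51.2 and 48.7 to 485, 501 and 315 RPKM (log2 3.08 ± 0.19, adjusted p = 3.23e-09), and Bmp2, a bone morphogenetic protein, from 0.133, 0.189 and 0.231 to 3.18, 2.11 and 1.98 RPKM (log2 1.51 ± 0.25, adjusted p = 9.41e-05). Vegfc, a growth factor for lymphatic vessels, was at 0.0122 to 0.0239 RPKM at day 0, 2.52 to 2.85 RPKM at day 4 (log2 1.86 ± 0.15, adjusted p = 4.15e-08) and 10.8, 9.93 and 7.06 RPKM at day 8. Its day 8 libraries lay above those of both other days.

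The sterol exporters Abca1 and Abcg1 rose, Abcg1 from 1.95, 2.06 and 2.07 to 8.50, 5.95 and 4.50 RPKM (log2 1.24 ± 0.21, adjusted p = 0.000144) and Abca1 from 2.23, 2.20 and 2.39 to 11.9, 8.81 and 3.34 RPKM (log2 1.33 ± 0.35, adjusted p = 0.00469), lowest in library 3. Csf2rb, the shared receptor chain of GM-CSF and interleukin 3, rose from 18.7, 20.1 and 19.5 to 58.1, 53.7 and 32.0 RPKM (log2 1.21 ± 0.21, adjusted p = 0.000192). The myeloid transcription factors Cebpa and Runx1 fell (log2 -1.71 and -1.16; neither passed when scaled without library 3), Cebpa from 49.9, 61.4 and 54.7 to 17.04, 15.1 and 16.5 RPKM.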
